A study of Mus musculus with 15 samples.

Results

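The chemokines CXCL12 and CXCL14 and the receptors CXCR4 and ACKR3 (formerly CXCR7) were followed in cortical interneurons derived from the medial ganglionic eminence (MGE), through their genes *Cxcl12*, *Cxcl14*, *Cxcr4* and *Ackr3*. The members were chosen by name, as the rows of both gene tables that carry one of these 4 symbols. All 4 were found once in each table, among 26835 genes listed for the *Lhx6* comparison and 25714 for the *Mtg8* comparison. The cells were YFP-positive and came by fluorescence sorting out of E14.5 mouse cortex, on a mixed C57BL6/CBA background, and total RNA was sequenced in 15 libraries. All embryos carried Nkx2-1-Cre, which drives recombination in the MGE lineage, and 2 copies of the R26R-YFP reporter. The *Lhx6* comparison held 4 control libraries (*Lhx6*+/+) and 5 mutant libraries (*Lhx6*-/-, a germline loss-of-function allele). The *Mtg8* comparison held 3 control libraries (*Mtg8*+/+) and 3 libraries labelled *Mtg8* mutant (*Mtg8*-/-, a germline loss-of-function allele). Each library came from 1 embryo. Both mutations are germline, so the tissue that the interneurons migrated through carried them as well.

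CXCL12 is a secreted chemoattractant made in the embryonic cortex by the meninges and by progenitors below the cortical plate. Migrating interneurons sense it through CXCR4, a receptor that signals through Gi proteins, and stay in their tangential streams until they enter the cortical plate. ACKR3 binds the same ligand, recruits arrestin rather than Gi, takes CXCL12 up from the surroundings and so keeps CXCR4 responsive. CXCL14 is a chemokine of the same family whose receptor is less well settled, and in the mature cortex its transcript is known from interneurons of the caudal ganglionic eminence (CGE).

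Depth was 12218422 to 22053032 reads per library. *Lhx6* had a normalized count of 5812 to 8441 in its 4 controls and of 236 to 495 in the 5 *Lhx6* mutants, so the mutants held 4.57% of the control mean. *Runx1t1*, the gene of MTG8, had a normalized count of 7938 to 10264 in the *Mtg8* controls and of 12250 to 13934 in the libraries labelled *Mtg8* mutant, with a limma adjusted p of 0.859, so those libraries are named by their label throughout. The *Mtg8* allele is a lacZ knock-in and the counts do not say where in the gene the reads fell, so this count does not check the genotype. All 14 MGE interneuron markers had reads in every group and summed to 51771 to 63762 normalized counts in the *Lhx6* controls, 32494 to 54275 in the *Lhx6* mutants, 81841 to 88177 in the *Mtg8* controls and 51704 to 67229 in the labelled *Mtg8* mutants. The list holds *Lhx6* itself, so the sum is not a share of cells. It also holds *Sst* (means of 11499 in *Lhx6* controls and 1388 in mutants) and *Npy* (4574 and 1575). Of the 14 genes 6 had fold changes below 0 and 8 above in the *Lhx6* table, and 13 and 1 in the *Mtg8* table. Transcripts of other cells were present too. Erythroid markers summed to 5983 to 58732 in the *Lhx6* controls, highest in control 3, to 1835 to 20444 in the *Lhx6* mutants, and to 10881 to 31741 in the *Mtg8* table. Radial glia markers summed to 6519 to 17245 and those of cortical intermediate progenitors and pyramidal neurons to 5843 to 23030 over all libraries, and radial glia sums in the *Mtg8* table were higher in every labelled mutant (8757 to 13255) than in every control (6519 to 8225). Microglia and macrophage markers summed to no more than 959. The part of these cells in the results was not tested. All 4 *Lhx6* controls and *Lhx6* mutant 6 carry library names without a date, whereas *Lhx6* mutants 1, 2, 3 and 5 carry dated names, so only mutant 6 separates genotype from naming there.

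The sequences upstream of 3 of the genes are shown because *Cxcl14* had the largest difference of the 4 genes and because *Ackr3* and *Cxcr4*, receptors for the same ligand, both had lower means in the *Lhx6* mutants. Each is the stretch of 250 bases before the start that RefSeq gives, 5′ to 3′ on the gene's own strand, from the RefSeq annotation of GRCm38.p6, in which all 4 members were matched. *Cxcl14* lies on the minus strand of chromosome 13 and its upstream stretch spans chr13:56296552-56296801. That of *Ackr3*, on the plus strand of chromosome 1, spans chr1:90203730-90203979, and that of *Cxcr4*, on the minus strand of the same chromosome, spans chr1:128592300-128592549. Capitals mark matches, on either strand, to TATAAA, the TATA box, to GGGCGG, the GC box, and to TAATTA, a core bound by LIM-homeodomain factors such as LHX6.
Cxcl14: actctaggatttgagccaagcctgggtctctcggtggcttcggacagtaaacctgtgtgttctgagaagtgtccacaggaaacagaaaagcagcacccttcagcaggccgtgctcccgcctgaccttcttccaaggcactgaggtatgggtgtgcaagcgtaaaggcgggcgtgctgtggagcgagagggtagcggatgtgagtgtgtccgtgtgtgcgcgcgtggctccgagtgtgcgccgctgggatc
Ackr3: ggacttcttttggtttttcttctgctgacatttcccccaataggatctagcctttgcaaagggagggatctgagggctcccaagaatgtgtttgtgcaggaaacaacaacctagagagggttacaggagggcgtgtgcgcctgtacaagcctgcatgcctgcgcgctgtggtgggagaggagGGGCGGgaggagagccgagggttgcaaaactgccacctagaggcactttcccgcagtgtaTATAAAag
Cxcr4: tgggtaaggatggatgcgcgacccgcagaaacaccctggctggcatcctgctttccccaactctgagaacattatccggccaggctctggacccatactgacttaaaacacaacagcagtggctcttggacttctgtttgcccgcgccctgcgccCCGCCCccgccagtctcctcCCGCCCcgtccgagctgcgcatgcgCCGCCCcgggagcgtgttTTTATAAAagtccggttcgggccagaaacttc
TATAAA ended 3 bases before the start of *Ackr3*, and 2 overlapping matches on opposite strands lay 25 to 32 bases before the start of *Cxcr4*. These are matches of letters at unlike distances from the start, and whether any of them works as a TATA box was not tested. Across 27025 promoter windows of the same length, 13.0% held TATAAA, 32.9% held GGGCGG and 4.90% held TAATTA. The *Cxcl14* stretch held none of the 3 motifs, which says only that these letters are not in this window.

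The first question was how much of each chemokine and receptor the control interneurons carried. Levels were compared between genes as normalized counts per kb of exon. In the *Lhx6* controls *Ackr3* had the highest mean level, 173 ± 36.5 normalized counts per kb (SD, n = 4), and stood above 70.8% of the genes tested. *Cxcr4* followed at 168 ± 129, *Cxcl12* at 30.2 ± 3.98 and *Cxcl14* at 15.6 ± 2.40 normalized counts per kb. Per kb *Cxcr4* and *Ackr3* did not hold a fixed order. *Cxcr4* was above *Ackr3* in 1 of 4 *Lhx6* control libraries and 1 of 3 *Mtg8* control libraries. Without division by length it was below *Ackr3* in all 7. Its median ratio to *Ackr3* was then 0.377 in the *Lhx6* and 0.149 in the *Mtg8* controls. *Cxcl12* was above *Cxcl14* in all 7 control libraries, by a median of 1.89 times per kb in the *Lhx6* controls and 2.07 times in the *Mtg8* controls, and both receptors were above both ligands per kb in each of them. The place of *Cxcl12* against *Cxcr4* also depended on the division by length. Without it *Cxcl12* was above *Cxcr4* in 3 of 4 *Lhx6* controls (median ratio 1.30, against 0.288 per kb) and in 1 of 3 *Mtg8* controls, while it stayed below *Ackr3* in all 7 (median ratio 0.490 in the *Lhx6* and 0.171 in the *Mtg8* controls), and the median ratio of *Cxcl12* to *Cxcl14* in the *Lhx6* controls was 8.47.

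In the *Lhx6* mutants this order was different. *Cxcl14* had the highest level of the 4 per kb in every mutant library, at a mean of 409.5 ± 147 normalized counts per kb (SD, n = 5), which placed it above 84.1% of the genes tested against 22.1% in the controls. *Ackr3* and *Cxcr4* lay side by side at 71.1 ± 46.7 and 70.9 ± 27.9 normalized counts per kb, and *Cxcl12* was lowest at 27.4 ± 6.74. Without division by length *Cxcl14* was above *Ackr3* in 4 of 5 mutant libraries, with a lowest ratio of 0.993. On that scale *Cxcl12* was above *Cxcr4* in 5 of 5 mutant libraries (median ratio 1.67) and above *Ackr3* in 4 of 5 (median ratio 1.11). The receptors were not side by side there, since *Cxcr4* was below *Ackr3* in every mutant library (median ratio 0.481). The labelled *Mtg8* mutants held the control order, from *Ackr3* at 238 ± 46.9 through *Cxcr4* at 208 ± 173 and *Cxcl12* at 31.3 ± 14.8 to *Cxcl14* at 6.87 ± 4.51 normalized counts per kb (n = 3). The 2 tables were normalized separately, so levels are compared within a table.

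**Figure D1:**
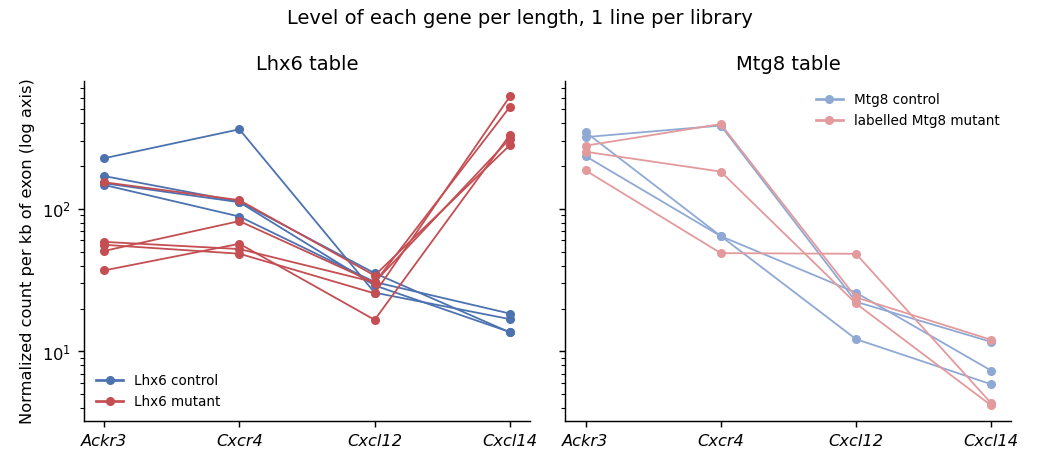
Normalized count per kb of exon (log axis) of the 4 genes, with 1 line per library, for the *Lhx6* table (left) and the *Mtg8* table (right). The lines of the *Lhx6* mutants end high at *Cxcl14*, at a mean of 409.5 normalized counts per kb against 15.6 in the controls, and in the other groups *Cxcl14* is the lowest of the 4 in every library.

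*Cxcl14* (ENSMUSG00000021508.11, chr13:56288643-56296551, minus strand, 1827 bases of exon on GRCm38) was the chemokine whose level differed most by genotype in the *Lhx6* comparison. In the *Lhx6* controls 1 to 4 its normalized count was 25.0, 33.7, 24.9 and 30.8. In the *Lhx6* mutants 1, 2, 3, 5 and 6 it was 509.8, 566, 1119, 945.5 and 602. Every mutant was far above every control, with 26 to 38 reads per control library and 412 to 1201 reads per mutant library. In sorted populations, more cells of a type and more RNA per cell cannot be told apart, and nor can fewer cells and less RNA per cell. The mean was 28.6 ± 4.38 in controls (SD, n = 4) and 748 ± 268 in mutants (SD, n = 5), a ratio of 26.2. The log2 fold change was 4.60 (SE 0.264, 95% interval 4.03 to 5.17), with a limma adjusted p of 1.03e-06. An exact two-sided permutation test over the libraries gave p = 0.0159, the smallest that 4 against 5 libraries allow. By log2 fold change *Cxcl14* ranked number 6 from the top among 16727 genes tested.

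*Cxcl14* was the 1 member of 4 called in the *Lhx6* table and the 1 member whose groups did not overlap. Of all genes tested in that table, 1.71% were called, and 6.22% had control and mutant libraries that did not overlap. Within the undated library names, mutant 6 alone against the 4 controls gave a log2 difference of 4.36 for *Cxcl14*, and within the library code shared by controls 1 and 2 and mutant 6 it was 4.33. Both stand on 1 mutant library and carry no test.

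*Cxcl14* was low in every library of the *Mtg8* table. Controls 1, 2 and 4 had normalized counts of 13.4, 21.3 and 10.8, and the labelled mutants 2, 3 and 4 had 7.93, 22.1 and 7.64. The groups overlapped, and the values rest on 7 to 24 reads per library. The log2 fold change was -0.36 (SE 0.579, 95% interval -1.62 to 0.90), with a limma adjusted p of 0.943 and an exact permutation p of 0.6. None of the 4 members was called in that table, where 0% of 16132 genes were called by limma, 886 had an unadjusted p under 0.05, edgeR called 1 gene higher, and DESeq2 called 10 lower and 22 higher. None of the members was called by edgeR or DESeq2 there either, and none had control and labelled mutant libraries apart, beside 10.2% of all genes tested. The difference between the *Lhx6* effect and the *Mtg8* effect was tested in 1 fit over all 15 libraries, and it was 4.97 on the log2 scale for *Cxcl14* (SE 0.540, 95% interval 3.83 to 6.11, limma adjusted p 0.000156). *Cxcl14* was the 1 member called there, where 0.531% of 15629 genes were called, and its difference was the highest of all of them.

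**Figure D2:**
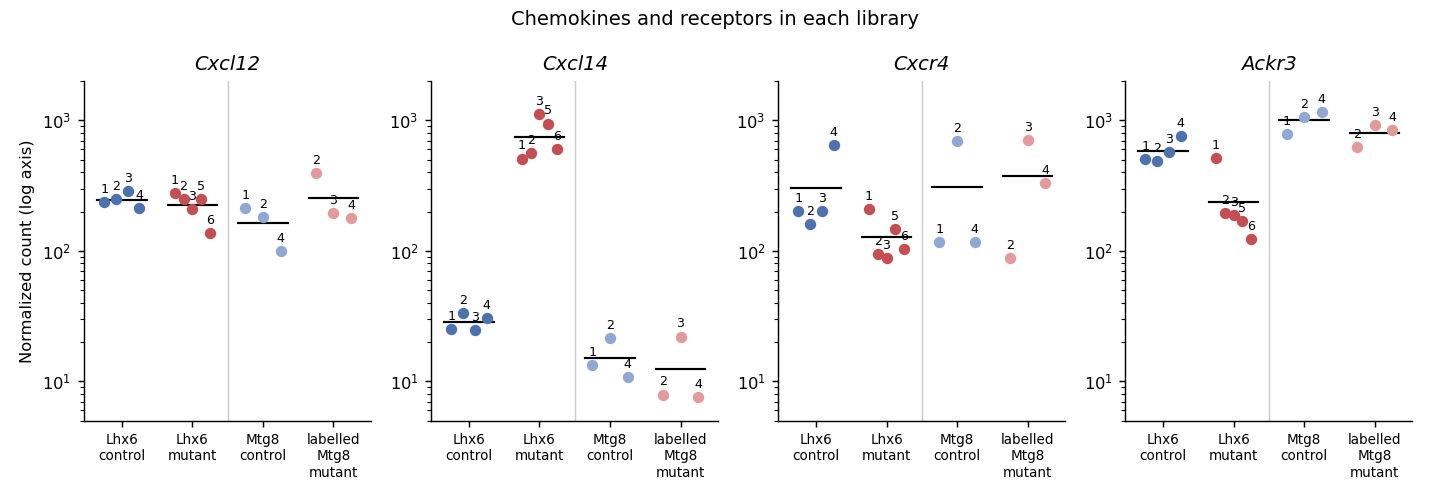
Normalized count (log axis) of *Cxcl12*, *Cxcl14*, *Cxcr4* and *Ackr3* in each library, numbered by replicate, with the group mean as a line. *Cxcl14* separates the *Lhx6* mutants (509.8 to 1119) from the controls (24.9 to 33.7), *Ackr3* separates all *Lhx6* mutants but number 1, and *Cxcr4* spreads from 88.4 to 709 within the labelled *Mtg8* mutants.

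The summed markers of CGE interneurons were also higher in the *Lhx6* mutants than in the controls. The list held 8 genes, of which 7 had reads in every group of the *Lhx6* table and *Vip* was at 0 or not listed. Their summed normalized count was 2748 to 3346 in the *Lhx6* controls and 3892 to 7267 in the *Lhx6* mutants, while it was 2639 to 3142 in the *Mtg8* controls and 2677 to 3523 in the labelled *Mtg8* mutants. The 7 genes did not move as 1 group, with 4 fold changes above 0 and 3 below. Among the mutants, mutant 1 had the highest sum (7267) and mutant 3 the lowest (3892), and their normalized counts of *Cxcl14* were 509.8 and 1119. The means in controls and mutants were 1510.0 and 2443 for *Nr2f1* (limma adjusted p 0.363), 721 and 1361 for *Nr2f2* (0.0676) and 206 and 495 for *Sp8* (0.291), none of them called by limma. The paper, with DESeq2, counts *Sp8* among the genes upregulated in both mutants. *Adarb2*, an RNA-editing family gene that marks CGE interneurons, was called higher, at means of 31.5 and 637, and *Htr3a*, the serotonin receptor subunit of those cells, was called lower, while *Prox1* had a mean of 84.7 in controls and 65.7 in mutants. Markers of subpallial projection and cholinergic neurons summed to 166 to 583 in the *Lhx6* controls and to 365 to 2137 in the *Lhx6* mutants. The 5 of them that were tested had fold changes above 0, with a median log2 fold change of 0.82, and none was called. The part of CGE interneurons and of these neurons in the *Cxcl14* result was not tested.

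*Ackr3*, the arrestin-coupled receptor (ENSMUSG00000044337.5, chr1:90203980-90216751, plus strand, 3348 bases of exon on GRCm38), had lower values in 4 of the 5 *Lhx6* mutants than in any control. In the *Lhx6* controls 1 to 4 its normalized count was 506, 492, 567 and 757. In the *Lhx6* mutants 1, 2, 3, 5 and 6 it was 514, 196, 187, 169.5 and 124. Mutant 1 lay inside the control range and the other 4 mutants lay below all controls. On average it was 580.5 ± 122 in controls (SD, n = 4) and 238 ± 156 in mutants (SD, n = 5), or 41.0% of the control mean. This gave a log2 fold change of -1.45 (SE 0.337, 95% interval -2.18 to -0.72). Its limma adjusted p of 0.0519 fell just outside the threshold of 0.05, although the exact two-sided permutation test on this gene alone gave p = 0.0476.

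The call for *Ackr3* turned on the processing and on 1 library. Without mutant 1 the log2 fold change was -1.77 with a limma adjusted p of 0.000534. The adjusted p was 0.0435 with a pseudocount of 10, 0.0392 with a minimum mean of 50, 0.0409 with TMM factors and 0.0115 in DESeq2, against 0.103 in edgeR, and it ranged from 0.0115 to 0.478 over the settings tried. Within the undated library names, mutant 6 against the 4 controls gave a log2 difference of -2.20. In mutant 1 the CGE marker sum was 7267 and the sum of the 7 Cajal-Retzius cell markers, all with reads in every group, was 3636, each the highest of the table. The Cajal-Retzius sum was 1822 to 2848 in the controls and 2127 to 3009 in the other mutants. Between the groups 3 of these 7 genes had fold changes above 0 and 4 below, with a median log2 fold change of -0.46. The part of these cells in the *Ackr3* value was not tested.

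In the *Mtg8* table *Ackr3* was the member with the least spread. Controls 1, 2 and 4 had normalized counts of 782, 1064 and 1154, and the labelled mutants 2, 3 and 4 had 622, 926 and 840.1. The labelled mutants covered a lower range that overlapped the controls. The mean was 1000.3 ± 194 in controls and 796 ± 157 in the labelled mutants (SD, n = 3 each). The fitted log2 fold change was -0.33 (95% interval -0.83 to 0.17, limma adjusted p 0.873), and the exact permutation p was 0.3, where 0.1 is the smallest possible with 3 against 3. The difference between the 2 effects was -1.12 (SE 0.474, limma adjusted p 0.411), and without *Lhx6* mutant 1 it was -1.43 with an adjusted p of 0.0447.

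*Cxcr4*, the Gi-coupled receptor for CXCL12 (ENSMUSG00000045382.6, chr1:128588199-128592293, minus strand, 1808 bases of exon on GRCm38), had the largest within-group SD of the members in both tables. Among the *Lhx6* mutants alone *Ackr3* varied more, its highest library being 4.15 times the lowest, against 2.37 times for *Cxcr4*. In the *Lhx6* controls 1 to 4 the normalized count of *Cxcr4* was 201, 159.5, 203 and 652. In the *Lhx6* mutants 1, 2, 3, 5 and 6 it was 208, 94.4, 87.6, 148 and 103. Mutant 1 lay inside the control range, the other 4 mutants lay below all controls, and control 4 stood far above the other controls. The mean was 304 ± 233 in controls (SD, n = 4) and 128 ± 50.5 in mutants (SD, n = 5). Its log2 fold change was -1.07 (SE 0.396, 95% interval -1.93 to -0.21), with a limma adjusted p of 0.270 and an exact permutation p of 0.0635. Without control 4 it was -0.62 with an adjusted p of 0.598. Mutant 1 was thus the highest mutant library for *Cxcr4* as for *Ackr3*.

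In the *Mtg8* table *Cxcr4* was spread over a wide range within each genotype. Controls 1, 2 and 4 had normalized counts of 116, 692 and 116, and the labelled mutants 2, 3 and 4 had 88.4, 709 and 329. The highest library was 5.95 times the lowest in the controls and 8.03 times the lowest in the labelled mutants. The within-group SD of *Cxcr4* on the log2 scale was 1.496 in this table, larger than that of 98.9% of the genes tested, and 0.72 in the *Lhx6* table, larger than that of 79.1%. The median gene had an SD of 0.33 and 0.40 in those tables. The log2 fold change in the *Mtg8* table was 0.38 (95% interval -1.21 to 1.97, limma adjusted p 0.952), an interval wide enough to hold large differences in either direction. The sign was not stable, since among dated library names the log2 difference was -1.67, from 2 controls and 1 labelled mutant, and among undated names it was 2.05, from 1 control and 2 labelled mutants. Of the markers, those of microglia and macrophages summed to 959 in control 2 and to 147 and 81.8 in mutants 3 and 4, and to 67.1, 8.80 and 88.4 in control 1, control 4 and mutant 2. In *Lhx6* control 4 that sum was 77.8, within the 53.2 to 233 of its group. Their part in the *Cxcr4* values was not tested.

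*Cxcl12* (ENSMUSG00000061353.11, chr6:117168535-117181367, plus strand, 8176 bases of exon on GRCm38) did not pass the test in either table. In the *Lhx6* controls 1 to 4 its normalized count was 237, 251, 289 and 211. In the *Lhx6* mutants 1, 2, 3, 5 and 6 it was 278, 249.9, 209, 248 and 136. The ranges overlapped and mutant 6 was the lowest library. The mean was 247 ± 32.5 in controls (SD, n = 4) and 224 ± 55.1 in mutants (SD, n = 5). The log2 fold change was -0.17 with a 95% interval of -0.67 to 0.32. The limma adjusted p was 0.762 and the exact permutation p was 0.540.

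In the *Mtg8* controls 1, 2 and 4 the normalized count of *Cxcl12* was 211, 182 and 99.8. In the labelled mutants 2, 3 and 4 it was 395, 196 and 177. Labelled mutant 2 stood highest and control 4 lowest, and the other 4 libraries lay between 177 and 211. The log2 fold change was 0.61 (95% interval -0.18 to 1.40, limma adjusted p 0.866, exact permutation p 0.5), and without 1 library it was 0.25 to 0.82. It was 1.01 among dated and 0.89 among undated library names, each with 1 library in an arm. Markers of cortical intermediate progenitors and pyramidal neurons, 11 genes all with reads in every group, summed to 23030 in labelled mutant 2 and to 5843 in control 4, the highest and the lowest of the 6 libraries, and to 9146 to 14267 in the rest. The summed pericyte markers were highest in control 4, at 628, where *Cxcl12* was lowest. Meningeal fibroblast markers, of which 8 of 11 had reads and *Aldh1a2*, *Foxc1* and *Foxc2* were at 0 or not listed, summed to 330 in labelled mutant 2 and to 320 in control 2. The part of these cells in the *Cxcl12* level was not tested. The difference between the 2 effects was -0.78 (limma adjusted p 0.535).

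**Figure D3:**
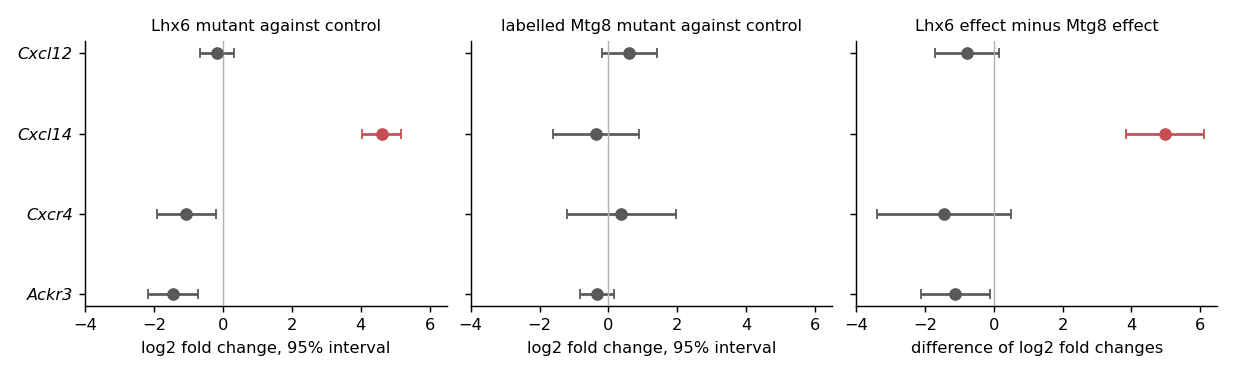
Log2 fold change of each gene with its 95% interval in the *Lhx6* table (left), the *Mtg8* table (middle), and the difference of the 2 effects over all 15 libraries (right). Red marks a limma adjusted p under 0.05, which only *Cxcl14* reached, at 4.60 in the *Lhx6* table and 4.97 for the difference.

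How the members varied together across libraries was also described. In the *Lhx6* table the Pearson correlation of *Cxcr4* and *Ackr3* on the log2 scale was 0.81 over 9 libraries, and 0.64 after each group's mean was taken away. Over the 6 libraries of the *Mtg8* table it was 0.45, and 0.66 without the group means. The ratio of *Cxcr4* to *Ackr3* per kb had a median of 0.699 in the *Lhx6* controls and 0.891 in the *Lhx6* mutants. For *Cxcl12* and *Ackr3* the correlation was 0.56 over the 9 and -0.91 over the 6 libraries. For *Cxcl14* and *Cxcr4* it was -0.65 over the 9 and 0.71 over the 6, and -0.13 and 0.81 without the group means. The values for *Cxcl14* and *Ackr3* were -0.82 and 0.50, and -0.36 and 0.41 without the group means. Those for the ligands *Cxcl12* and *Cxcl14* were -0.29 and -0.19. These values are descriptions, since the libraries share their size factors with every gene, and 2 libraries, *Lhx6* control 4 and *Lhx6* mutant 1, were high for both receptors.

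The genes most like each member over the 9 libraries of the *Lhx6* table were also found, as the 5 with the highest Pearson correlation on the log2 scale. For *Cxcl14* they were *Ntm*, *Adarb2*, *Cbln2*, *Cntnap2* and *Pbx3*, with correlations of 0.98 to 0.99 and log2 fold changes of 1.13 to 4.94. *Cxcl14* itself differs between the groups of these libraries, so the choice of genes that follow it largely fixed that direction, which is given as a description. *Pbx3*, a TALE homeodomain factor, went from 65.4 ± 20.5 in controls to a mean of 2016 in mutants, and *Adarb2* from 31.5 ± 11.4 to 637. In the *Mtg8* table the log2 fold changes of these 5 were -0.27 to 1.65, highest for *Cbln2* (1.65) and *Pbx3* (1.42). None was called by limma there. The paper, with DESeq2, counts *Cbln2* and *Pbx3* among the genes upregulated in both mutants. Without the group means the correlations of these 5 with *Cxcl14* were 0.24 to 0.66, and in the *Mtg8* table they were -0.61 to 0.13. For *Ackr3* they were *Gm37478*, *Cited2*, *Hivep3*, *Nefm* and *Kcns3*, at 0.94 to 0.95, and 0.81 to 0.89 without the group means. Over the 6 *Mtg8* libraries the correlations of these 5 with *Ackr3* were -0.05 to 0.18. *Hivep3*, a zinc finger factor, had a log2 fold change of -1.29, and its direction was largely fixed in the same way. *Kcns3*, a potassium channel subunit, had a normalized count of 35.9 in *Lhx6* mutant 1 and no read in the other 4 mutants, against a control mean of 67.2 ± 29.1. For *Cxcr4* the nearest were *Man2a2*, *Gm5693*, *Gm6291*, *A830005F24Rik* and *Srsf3*, at 0.87 to 0.93, and for *Cxcl12* they were *Tspoap1*, *Ski*, *Zmat3*, *A330076H08Rik* and *Scaf8*, at 0.94 to 0.97. Over the 6 *Mtg8* libraries the correlations of these genes with *Cxcr4* were -0.94 to 0.93, and with *Cxcl12* they were -0.56 to 0.19.

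The rest of the chemokine system was sparse in these cells. Of 31 other chemokine ligands listed, 12 were in the *Lhx6* table and 6 passed the minimum mean of 10, and of 22 other receptors and related genes 10 were in the table and 3 passed. None of these was called in either table by limma, edgeR or DESeq2, and the median log2 fold change in the *Lhx6* table was 0.01 for the ligands and 0.14 for the receptors, beside -0.04 over all genes tested. *Mif*, a cytokine that also binds CXCR4, was the most abundant at 6132 normalized counts per kb in the *Lhx6* controls, with a mean normalized count of 4568 in controls and 5064 in mutants. *Ccl27a* had 415 and *Ccl25* 26.7 normalized counts per kb. *Ccl27a* shares exon positions with *Il11ra1* and *Ccl25* with *Elavl1*, so their counts are uncertain. Among the receptors the highest was *Gpr85*, an orphan receptor, at 664 normalized counts per kb, followed by the scavenger *Ackr1* at 109.5 (sharing exon positions with *Cadm3*) and the microglial receptor *Cx3cr1* at 3.002.

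The signalling genes below the 2 receptors were examined as lists. Of 23 tested genes of Gi and Gbeta-gamma signalling 1 was called in the *Lhx6* table, namely *Plcb1*, a phospholipase C that Gq and Gbeta-gamma subunits activate. It was lower in the mutants, with a mean normalized count of 703 ± 57.1 in controls and 369 in mutants, and a log2 fold change of -0.96 (SE 0.196, limma adjusted p 0.0245). The median of that list was 0.15. The G protein subunits *Gnb1*, *Gng3* and *Gng2* were the most abundant of it, at 4150.3, 2694 and 2477 normalized counts per kb in the controls. Of 21 genes for arrestins, receptor kinases, RGS proteins and receptor turnover 1 was called, *Rgs10*, a GTPase-activating protein for Gi subunits. *Rgs10* was higher in every mutant library (216 at the lowest) than in every control library (90.3 at the highest), with a log2 fold change of 1.70 (SE 0.195, limma adjusted p 0.000404). With naming as a covariate, where the *Lhx6* effect rests on mutant 6 alone and that library is assumed to vary like the others, the log2 fold change of *Rgs10* was 1.63 with an adjusted p of 0.0833. The most abundant of that list were the endosomal GTPases *Rab7* and *Rab11a* and the ubiquitin ligase *Nedd4*. Of 32 tested CXCR4 effectors 1 was called, *Pik3r1*, a regulatory subunit of phosphoinositide 3-kinase, at 0.77 (SE 0.176, limma adjusted p 0.0472). The actin regulator *Cfl1* and the GTPases *Cdc42* and *Rac1* were the most abundant effectors, at 10268, 3084 and 1053 normalized counts per kb. The call of *Plcb1* was lost without the variance trend (adjusted p 0.0708), with naming as a covariate (0.910) and in 6 of 9 fits that left out 1 library (up to 0.111). The count for the Gi and Gbeta-gamma list was 4 in DESeq2 on the recovered reads and 2 in each limma fit without mutant 1, mutant 3 or mutant 6. That of *Pik3r1* was lost with TMM factors (0.0572), without the filter (0.0567), without the trend (0.106), with naming as a covariate and in 8 of 9 such fits (up to 0.192). *Plcb1*, *Gng3*, *Rab7*, *Nedd4*, *Cfl1* and *Rac1* share exon positions with other genes, and their counts are uncertain. The shares of the 3 lists, 4.35%, 4.76% and 3.125%, stand beside 1.71% over all genes tested, and each is a single gene in the limma fit of all 9 libraries. In the *Mtg8* table none of the genes of the 3 lists was called by limma without a replicate block, by edgeR or by DESeq2 with all 6 libraries, and without labelled mutant 2 limma called 1 CXCR4 effector.

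Of 46 tested genes known for the tangential migration of interneurons, 2 were called lower and 6 higher in the *Lhx6* mutants, or 17.4%, beside the 1.71% over all genes tested. Their median log2 fold change was 0.25 beside -0.04. The list shares 8 genes with the MGE interneuron markers. *Sema3a*, a repulsive semaphorin, was lower at -2.45 (SE 0.271, limma adjusted p 0.000308), and *Satb1*, a chromatin organizer of MGE interneurons, was lower at -1.56 (adjusted p 0.000645). The Slit receptors *Robo2* and *Robo1* were higher at 1.95 and 1.604, and *Nrp2*, a semaphorin co-receptor, was higher at 1.62. *Dlx6* and *Dlx5*, neighbouring homeobox genes of ventral forebrain identity, were higher at 1.66 and 1.02, and *Vldlr*, a reelin receptor, was higher at 1.47. The mean normalized count of *Robo2* went from 1526 to 6043 and that of *Sema3a* from 1043 to 201. *Dlx6*, *Dlx1*, *Satb1* and *Stmn1* share exon positions with other genes, and their counts are uncertain. With naming as a covariate, which rests on mutant 6, 1 gene of the list passed the threshold. *Stmn1*, *Dlx1* and *Dlx5* were the most abundant genes of the list, at 41909, 2159.6 and 942 normalized counts per kb in the controls. In the *Mtg8* table none of 45 tested genes was called by limma without a replicate block, edgeR or DESeq2, and the median was -0.10. The difference between the *Lhx6* and *Mtg8* effects was called for *Robo2* (2.17), *Dlx6* (2.06), *Vldlr* (1.64), *Dlx5* (1.28) and *Sema3a* (-1.85), and for *Rgs10* (1.95) of the turnover list. The call for *Sema3a* was lost in edgeR (adjusted p 0.0503), with naming as a covariate (0.738) and in 12 of 15 fits that left out 1 library (up to 0.158). With naming those for *Robo2* (0.222), *Dlx6* (0.232) and *Vldlr* (0.165) were lost, and that for *Dlx6* also without *Mtg8* control 1 (0.0627) or labelled mutant 3 (0.0602).

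**Figure D4:**
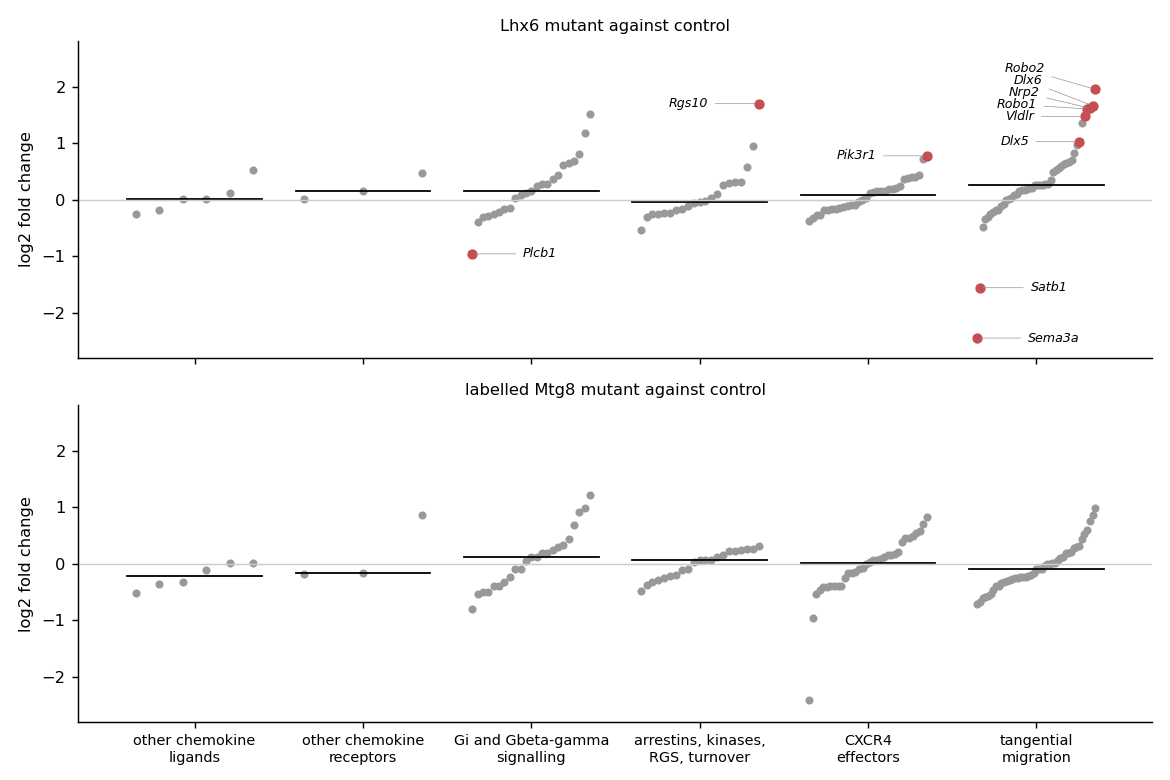
Log2 fold change of each tested gene of 6 lists, sorted within its list, in the *Lhx6* table (top) and the *Mtg8* table (bottom). Black lines are list medians and red marks a limma adjusted p under 0.05, which 11 genes reached in the *Lhx6* table, 8 of them in the tangential migration list, and none in the *Mtg8* table.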

How the data were processed

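Total RNA of YFP-positive cells from single embryos was amplified with a low-input kit and sequenced as single reads of 75 bases. Per the submitters' processing notes and methods, the authors trimmed with fastp 0.20.1, aligned with STAR 2.7b to GRCm38.p6, counted with featureCounts 1.6.4, removed sex-linked genes and divided by DESeq2 size factors. The deposited normalized counts (a signal, 1 value per gene and library, scaled within each table) were used. The deposited columns of the authors' own comparisons (log2 fold changes, test scores, p-values) were not. Whole reads were recovered from the steps of the values, 100% of them within 0.01.

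Each table was tested alone with limma 3.58.1 (R 4.3.3, with a variance trend) on log2(normalized count + 1), over genes with a mean of at least 10 and at a Benjamini-Hochberg adjusted p of 0.05. Fold changes stand on that scale, which understates low genes. The difference of effects used log2 CPM of recovered reads (TMM factors, prior count 1) over all 15 libraries. Exact permutation tests used scipy 1.17.1, two-sided. Levels between genes are per kb of the deposited exon length. On simulated data 94.3% of 193 genes changed by 1.5 (log2) were called in the *Lhx6* table, 93.9% of 196 in the *Mtg8* table, and for the difference 95.0% of 200 changed by 2. The simulated spread was set by a formula and not taken from these libraries. Their median within-group SD on the log2 scale was 0.40 in the *Lhx6* and 0.33 in the *Mtg8* table, where that of *Cxcr4* was 1.496. The shares therefore check the method and are not its power in these libraries.

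The members and all lists were chosen with earlier results of these data known, and 1 gene of the lists is not reported here. Text names the members, the targeted genes, called list genes (6 largest per list, with *Vldlr* named to complete the count), the 3 most abundant genes of each list, and the 5 genes most like each member. Alternatives were the pseudocount, the filter, scaling, the trend, edgeR 4.0.16 and DESeq2 1.42.0 on recovered reads, a replicate block, library naming and leaving out each library.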

Additional observations from a re-analysis of the deposited data

Results flagged for a closer look

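Of 106 groups of 4 or 5 libraries examined, 12 held a library set apart from the others, where chance gives about 1 in 20. Among the members, *Cxcr4* had a normalized count of 652 in *Lhx6* control 4 against 159.5 to 203 in the other controls, and *Ackr3* had 514 in *Lhx6* mutant 1 against 124 to 196 in the other mutants. *Lhx6* mutant 1 also stood apart for *Kcns3* (35.9 against no read), *Nefm* (145 against 65.9 to 86.1), both among the genes most like *Ackr3*, for *Gm6291* (27.2 against 14.5 to 16.8) and for *Cfl1* (29996 against 27471 to 27914). *Lhx6* control 4 stood apart for *A830005F24Rik* (74.4 against 27.6 to 35.5), a gene most like *Cxcr4*, and such genes were chosen for following their member.

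The others were list genes. *Ccl27a* was 524 in *Lhx6* control 2 against 1102 to 1164, *Ccl25* was 132 in mutant 3 against 214 to 225, and *Gng2* was 12199 in control 1 against 10320.5 to 10538. *Nrp2* was 225 in control 2 against 284 to 294, and *Dlx1* was 19816 in mutant 3 against 10341 to 11791.

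The mutant effect differed between the *Lhx6* and the *Mtg8* libraries by 4.97 on the log2 scale for *Cxcl14* (limma adjusted p 0.000156). Of the genes most like it, chosen over the same *Lhx6* libraries so that their difference is no independent support, it was 3.98 for *Adarb2* (0.00238), 3.52 for *Pbx3* (0.000156), 2.34 for *Ntm* (0.00118) and 1.40 for *Cntnap2* (0.00205), with limma adjusted p-values in brackets. Of the listed pathway genes it was 2.17 for *Robo2*, 2.06 for *Dlx6*, 1.95 for *Rgs10*, 1.64 for *Vldlr*, 1.28 for *Dlx5* and -1.85 for *Sema3a*, with limma adjusted p-values of 0.00227 to 0.0448. With naming as a covariate the differences of *Adarb2* (0.115), *Cntnap2* (0.0585), *Robo2* (0.222), *Dlx6* (0.232), *Vldlr* (0.165) and *Sema3a* (0.738) did not pass the threshold, and that of *Sema3a* did not pass in edgeR (0.0503) or in 12 of 15 fits without 1 library.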

How the results depend on the processing

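*Cxcl14* was called in the *Lhx6* table under every setting (4.23 to 4.70) and without any 1 library (4.44 to 4.72), and for the difference of effects wherever it was tested. It was not tested at a minimum mean of 50 in the *Mtg8* table or for the difference, where 0 members were then called. *Ackr3* in the *Lhx6* table passed the threshold with a pseudocount of 10 (-1.41), a minimum mean of 50 (-1.45), TMM factors (-1.48) and DESeq2 (-1.29), which made 2 members called in each. Leaving out 1 library gave -1.77 to -1.26 for it and 1 to 2 members called. For the difference *Ackr3* ranged from -1.43 to -0.93, and 1 to 2 members were called. With naming as a covariate the difference for *Cxcl12* was -1.86 (limma adjusted p 0.0317) and 2 members passed the threshold, which nothing here rests on. That fit shared a naming effect over the libraries of both comparisons. In the *Lhx6* table alone the effect with naming is that of mutant 6, the lowest library for *Cxcl12*. The log2 fold change of *Cxcl12* was -0.85 there. *Cxcr4* in the *Mtg8* table ranged from -0.30 to 1.23 without 1 library, being -0.05 without control 1 or control 4 and -0.30 without mutant 3. The cause was not tested.

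Genes called in the *Lhx6* table, lower and higher, were 262 and 510 in DESeq2 and 42 and 15 with naming as a covariate, and 55 to 148 and 104 to 344 without 1 library. In the *Mtg8* table they were 1 and 1 at a minimum mean of 50, 10 and 22 in DESeq2, 0 and 1 in edgeR, 0 and 1 without a filter, and 0 to 4 and 0 to 83 without 1 library, the highest without mutant 2. For the difference they were 11 and 14 with naming, and 14 to 254 and 34 to 186 without 1 library. The labels do not say that a number marks a shared litter or day, although *Mtg8* control 2 and labelled mutant 2 both have dated names with 1 code, as does control 1. Same-numbered libraries had correlations of deviations of -0.154, 0.0017 and 0.0717 in the *Lhx6* table and 0.14 and 0.16 in the *Mtg8* table. With the replicate block 37 lower and 49 higher genes were called in the *Lhx6* table and 12 and 88 in the *Mtg8* table (2 of them tangential migration genes and 1 of the Gi list), *Ackr3* was -0.96 (limma adjusted p 0.478) in the *Lhx6* table and *Cxcr4* was -0.73 in the *Mtg8* table. With the block *Rgs10* (1.65), *Plcb1* (-1.01), *Pik3r1* (0.80), *Dlx5* (1.15), *Cntnap2* (1.16), *Hivep3* (-1.08) and *Kcns3* (-4.52) had fold changes in the same direction but did not pass (adjusted p 0.0809 to 0.445). Depth limits *Cxcl14* most, with 7 to 38 reads per library outside the *Lhx6* mutants.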
